A study of Homo sapiens with 36 samples.

Results

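The miR-183 cluster is a group of 3 microRNA (miRNA) hairpins on human chromosome 7, MIR183, MIR96 and MIR182, that lie close together on one strand. Its members were taken by name, as the mature miRNAs hsa-miR-183-5p, hsa-miR-96-5p and hsa-miR-182-5p, and all 3 were listed in each of the 7 tables, out of 509 miRNA names listed in at least 1 table. miRNAs are short RNAs that are loaded on Argonaute proteins and repress mRNAs whose sites pair with the seed, the bases near their 5′ end. The hairpins of this cluster are transcribed together and are best known from hair cells, photoreceptors and other sensory cells. They are also known to be abundant in many epithelial tumours, colorectal carcinoma included.

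Small RNA was sequenced from 36 libraries of human aneuploid lines and their near-diploid parents. HCT116 is a colon carcinoma line, and RPE1 is a line of retinal pigment epithelium immortalised with hTERT. An asterisk marks lines that carry H2B-GFP, a fluorescent histone. HCT116 5/4 has 4 copies of chromosome 5 and was set beside HCT116. HCT116 18/3 c2, HCT116* 3/3 c11 and HCT116* 8/3 c7 have 3 copies of chromosome 18, 3 or 8 and were all set beside the same 3 HCT116* libraries, although HCT116 18/3 c2 itself carries no H2B-GFP. The study's count of detected miRNAs groups HCT116 18/3 c2 with HCT116 instead. HCT116* is taken as its control throughout, and the shared control libraries described below rest on that. RPE1 5/3 12/3 has 3 copies of chromosomes 5 and 12 and was set beside RPE1. RPE1* 21/3 and RPE1* 7/3 have 3 copies of chromosome 21 or 7, and each was set beside its own 3 RPE1* libraries. RPE1* 7/3 is the line that gained the chromosome of the cluster, and the study describes further gains of chromosomes 9 and 12 in it. The lines marked c are single clones made by transfer of a chromosome, each condition is 1 line, and HCT116 5/4 came from another laboratory. The study's list of lines gives that laboratory as the source of HCT116 too, although its methods name a culture collection. It lists HCT116* as made from HCT116 of the culture collection.

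Each table gives, for a miRNA, the authors' mean of size-factor normalised counts over 6 libraries, the 3 of a line and the 3 of its control. Such a mean is called a pool here. A pool does not separate the line from its control, holds no spread between libraries and gives no depth of a library, so the values below carry no error. No difference was tested, and only an outlier rule was applied to the HCT116 pools, in a closing section. Levels are parts per 1000000 (ppm) of the summed mean of a pool, which ran from 5556870 to 11221232 normalised counts. The tables were normalised separately, so a level set across pools also rests on this scaling.

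The mature sequences are shown first because the members resemble each other in the seed, which decides what a miRNA can pair with. The sequences are those of RefSeq on GRCh38.p14, written 5′ to 3′ with bases 2 to 8, the seed, in capitals. The fourth belongs to hsa-miR-1271-5p, the other listed miRNA that has the seed of a member.
hsa-miR-183-5p: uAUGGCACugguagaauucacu
hsa-miR-96-5p: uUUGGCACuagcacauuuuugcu
hsa-miR-182-5p: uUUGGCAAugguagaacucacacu
hsa-miR-1271-5p: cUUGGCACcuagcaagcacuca
The 3 members have 3 different seeds that differ by 1 or 2 bases. Counted from the 5′ end, hsa-miR-183-5p differs from hsa-miR-96-5p in the seed by A2U, and from hsa-miR-182-5p by A2U and C8A. hsa-miR-96-5p differs from hsa-miR-182-5p by C8A, so both share bases 2 to 7. Over the whole sequence, seed included, the likeness has another order. Position by position without gaps, hsa-miR-183-5p and hsa-miR-182-5p have the same base at 18 of 22 positions, hsa-miR-183-5p and hsa-miR-96-5p at 13 of 22, and hsa-miR-96-5p and hsa-miR-182-5p at 12 of 23. hsa-miR-1271-5p has all 7 seed bases of hsa-miR-96-5p but the same base at only 9 of 22 positions.

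The hairpins below show where the measured arm sits in its precursor. Capitals mark the mature arms, the 5p arm first and the 3p arm after the loop.
MIR96: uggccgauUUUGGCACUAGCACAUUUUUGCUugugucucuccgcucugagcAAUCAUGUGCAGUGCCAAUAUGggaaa
MIR182: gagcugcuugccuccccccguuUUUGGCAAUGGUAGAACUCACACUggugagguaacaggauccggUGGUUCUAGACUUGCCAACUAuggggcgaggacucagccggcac
The 5p arm, which is the one listed for each member, leads the hairpin in both. The 3p arms of the 3 hairpins were listed in none of the 7 tables. Of the 509 miRNA names listed, 333 ended in -5p and 12 in -3p. Levels and ranks given below are therefore those within a list that holds few 3p arms.

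In GRCh37 coordinates, the build (hg19) that the reads were mapped to, all 3 hairpins are on the minus strand of chromosome 7. MIR183 is at chr7:129414745-129414854, MIR96 at chr7:129414532-129414609 and MIR182 at chr7:129410223-129410332. The mature hsa-miR-183-5p was found at chr7:129414807-129414828, hsa-miR-96-5p at chr7:129414579-129414601 and hsa-miR-182-5p at chr7:129410287-129410310. MIR183 and MIR96 are 135 bases apart, whereas 4199 bases separate MIR96 from MIR182, and the whole cluster spans 4632 bases. GENCODE places the 3 hairpins in an intron of a long non-coding RNA of the same strand, ENSG00000286380. MIR1271 is on another chromosome, at chr5:175794949-175795034 on the plus strand, in an intron of the protein-coding gene ARL10.

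**Figure D1:**
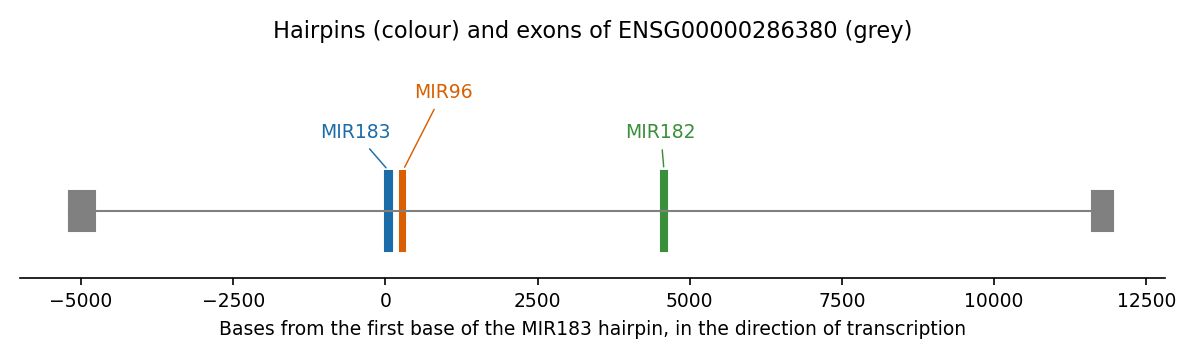
Map of the cluster to scale, with the x axis in bases from the first base of the MIR183 hairpin in the direction of transcription. Coloured boxes are the 3 hairpins and grey boxes the exons of ENSG00000286380, and MIR183 and MIR96 sit side by side while MIR182 begins 4522 bases downstream.

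All 3 members were higher in each HCT116 pool than in any RPE1 pool. Among 173 miRNAs with a mean of at least 10 in every pool, 46.8% had their 4 HCT116 pools above their 3 RPE1 pools in the same way, so this order alone was common. The size of the difference placed the members near the upper end of the 173. These pools are 4 and 3 line and control sets of 1 cell line each, 3 of the HCT116 pools share their control libraries, and a difference between HCT116 and RPE1 cannot be told apart from other differences between 2 cultured lines.

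hsa-miR-183-5p was the most abundant member in every pool. Its level was 20921 ppm in HCT116 18/3 c2, 17086 ppm in HCT116* 8/3 c7, 15951 ppm in HCT116* 3/3 c11 and 14967 ppm in HCT116 5/4. In the RPE1 pools it was 375 ppm in RPE1 5/3 12/3, 770 ppm in RPE1* 21/3 and 850 ppm in RPE1* 7/3. The HCT116 pools lay within a narrow range and the lowest of them was 17.6-fold above the highest RPE1 pool. The medians differed by 4.42 on the log2 scale, or 21.4-fold, the 7th largest difference towards HCT116 among the 173. By abundance it ranked 7th of 409 listed miRNAs in HCT116 18/3 c2 and 39th of 297 in RPE1 5/3 12/3, its best and worst places.

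hsa-miR-182-5p was second in every pool. It reached 9028 ppm in HCT116 5/4, whereas HCT116 18/3 c2 had 4373 ppm, HCT116* 3/3 c11 3698 ppm and HCT116* 8/3 c7 3469 ppm. The RPE1 pools had 326 ppm in RPE1 5/3 12/3, 558 ppm in RPE1* 21/3 and 402 ppm in RPE1* 7/3. HCT116 5/4 was the highest of the HCT116 pools, and even the lowest HCT116 pool was 6.22-fold above the highest RPE1 pool. The medians differed by 3.32 on the log2 scale, the 19th largest towards HCT116 and the smallest of the 3 members.

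hsa-miR-96-5p, the member whose seed is altered in a form of inherited hearing loss, was the least abundant. It had 3475 ppm in HCT116 5/4, while HCT116 18/3 c2 had 1937 ppm, HCT116* 3/3 c11 1540 ppm and HCT116* 8/3 c7 1398 ppm. It had 128 ppm in RPE1* 7/3, 124 ppm in RPE1* 21/3 and 100.1 ppm in RPE1 5/3 12/3. Its HCT116 pools followed the same order as those of hsa-miR-182-5p, with HCT116 5/4 highest and HCT116* 8/3 c7 lowest, and its RPE1 pools were almost level. The medians differed by 3.80 on the log2 scale, or 13.9-fold, the 13th largest towards HCT116. Without a spread between libraries, none of the neighbours in these orders can be called different.

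**Figure D2:**
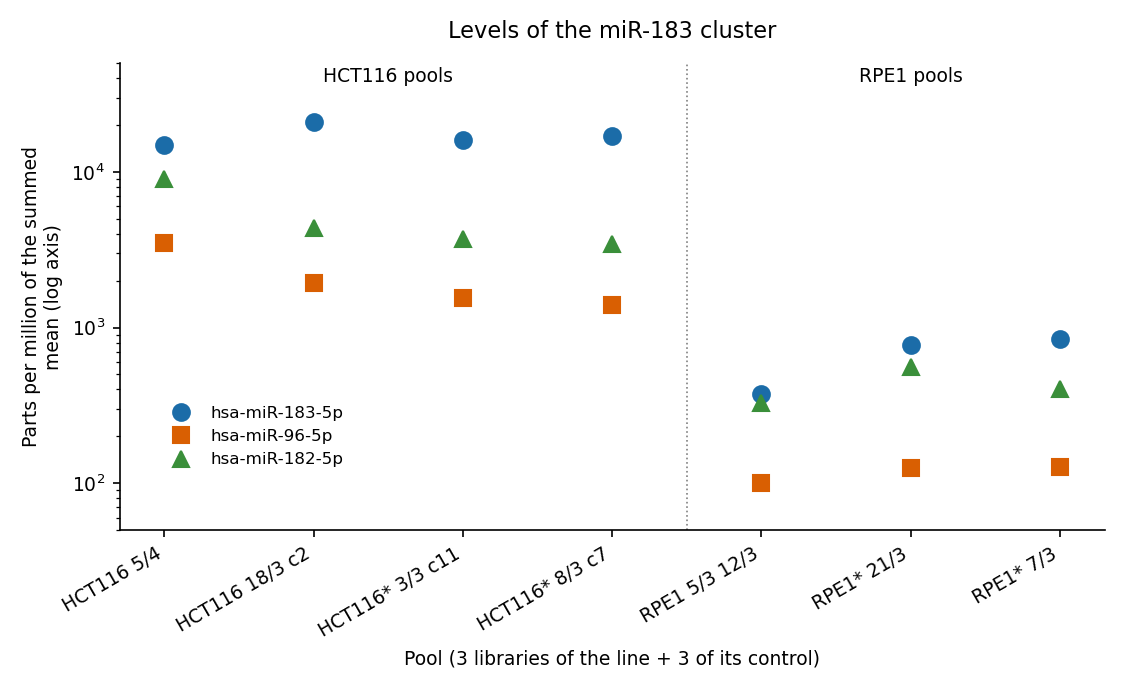
Level of each member in the 7 pools, in ppm of the summed mean of a pool on a log axis; each point is the authors' mean over 6 libraries and has no error bar. Every HCT116 point lies above the RPE1 points of the same miRNA, hsa-miR-183-5p is uppermost in each pool, and hsa-miR-182-5p comes close to it in RPE1 5/3 12/3 with 326 against 375 ppm.

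Together the 3 miRNAs made up 2.75% of the summed mean in HCT116 5/4, 2.72% in HCT116 18/3 c2, 2.20% in HCT116* 8/3 c7 and 2.12% in HCT116* 3/3 c11. The RPE1 pools gave 0.0802% in RPE1 5/3 12/3, 0.145% in RPE1* 21/3 and 0.138% in RPE1* 7/3. The sum was thus nearly equal in HCT116 5/4 and HCT116 18/3 c2, although the shares of the members within it were not.

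The size of the cell type difference depended on the scaling. Under ppm the median of the 173 miRNAs was itself 0.84 higher in HCT116 on the log2 scale, and under median-of-ratios scaling, which centres the pools on their typical miRNA, it was −0.13. Relative to that median, hsa-miR-183-5p was higher by 3.58 under ppm and 3.52 under median of ratios. The corresponding values were 2.95 and 2.96 for hsa-miR-96-5p and 2.48 and 2.32 for hsa-miR-182-5p. The direct fold differences under median of ratios were 10.5, 7.13 and 4.57 for hsa-miR-183-5p, hsa-miR-96-5p and hsa-miR-182-5p. The 4 HCT116 pools of each member stayed above its 3 RPE1 pools under that scaling, where 25.4% of the 173 miRNAs had this order.

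**Figure D3:**
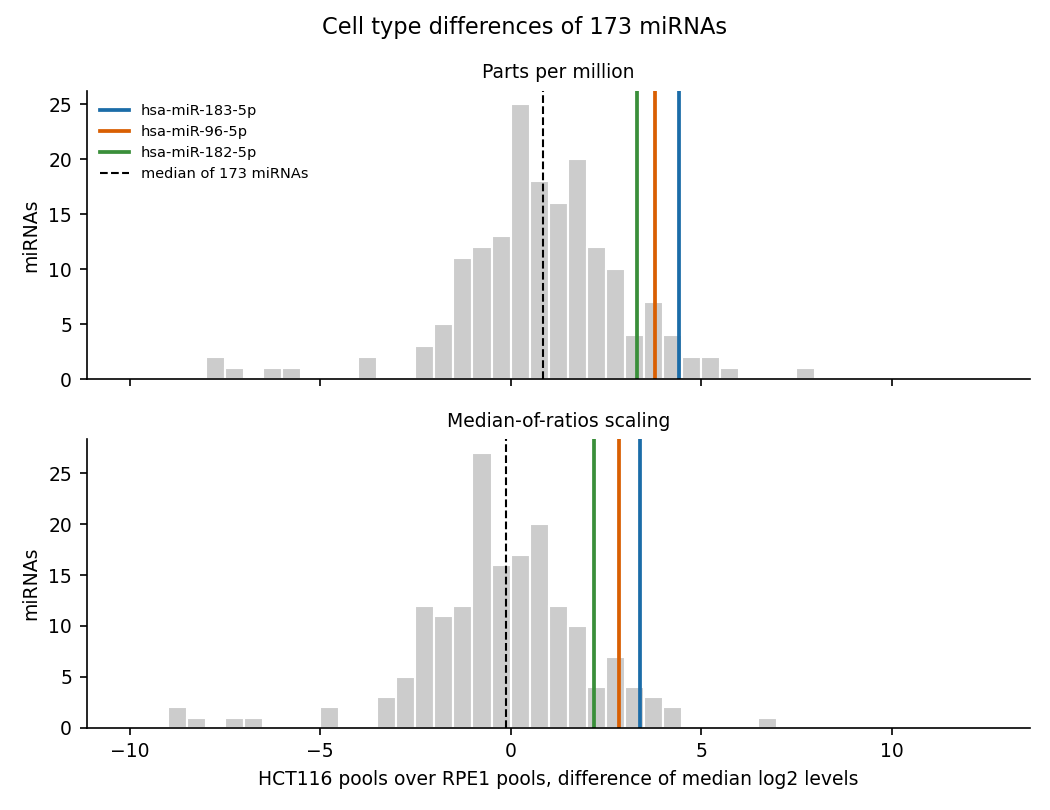
Histograms of the difference between HCT116 and RPE1 pools for 173 miRNAs, as the median log2 level over 4 HCT116 pools minus that over 3 RPE1 pools, under ppm (top) and median-of-ratios scaling (bottom). Coloured lines mark the members at 4.42, 3.80 and 3.32 in the upper panel and the dashed line the median of all 173, and the members keep their order and lie in the upper tail in both panels.

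As a check on the cell types, miRNAs that mark tissues were read from the same pools. Of 8 names fixed for epithelium (miR-200 family and miR-203), 4 were listed, and their summed level was 1270 to 2747 ppm in the HCT116 pools against 0 to 0.584 ppm in the RPE1 pools, where a miRNA that a table does not list was counted as 0. hsa-miR-200a-5p had the highest level of them. Of the 2 names for pigment epithelium, hsa-miR-204-5p was at 4.50 ppm or less in HCT116 and 380 to 1450 ppm in RPE1, and hsa-miR-211-5p was below 2 ppm wherever it was listed. The intestinal list, with hsa-miR-215, hsa-miR-194-5p and hsa-miR-192-5p listed, summed to 303 to 749 ppm in HCT116 and 192 to 251 ppm in RPE1. The mesenchymal list, of which 4 of 5 names were listed, summed to 168 to 305 ppm in HCT116 and 9.01 to 114 ppm in RPE1, most of it hsa-miR-145-5p. Of 4 blood names only hsa-miR-142-5p was listed, at 1.90 to 38.6 ppm in HCT116 and in no RPE1 table.

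The ratios between members do not depend on the scaling of a pool, since both miRNAs are divided by the same sum. They are ratios of counted reads, and no correction for differences between sequences in library preparation was made. The ratio of hsa-miR-183-5p to hsa-miR-182-5p was 4.93 in HCT116* 8/3 c7, 4.78 in HCT116 18/3 c2 and 4.31 in HCT116* 3/3 c11, but 1.66 in HCT116 5/4. It was 2.11 in RPE1* 7/3, 1.38 in RPE1* 21/3 and 1.15 in RPE1 5/3 12/3. The ratio therefore spanned 4.28-fold over the pools, and HCT116 5/4 lay among the RPE1 pools rather than with the other HCT116 pools.

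The ratio of hsa-miR-96-5p to hsa-miR-182-5p varied less. It was 0.443 in HCT116 18/3 c2, while HCT116* 3/3 c11 had 0.416, HCT116* 8/3 c7 0.403 and HCT116 5/4 0.385. The RPE1 pools gave 0.307 in RPE1 5/3 12/3, 0.223 in RPE1* 21/3 and 0.317 in RPE1* 7/3. All HCT116 pools were above all RPE1 pools, and the whole range was 1.99-fold. How many other pairs of miRNAs have this order was not computed, so it cannot be called particular to this pair. The SD of the log2 ratio over the 7 pools was 0.35 for this pair, 0.67 for hsa-miR-183-5p to hsa-miR-96-5p and 0.90 for hsa-miR-183-5p to hsa-miR-182-5p. The pair with the steadiest ratio is thus the one whose hairpins are 4199 bases apart, while the neighbours MIR183 and MIR96 gave a more variable ratio.

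**Figure D4:**
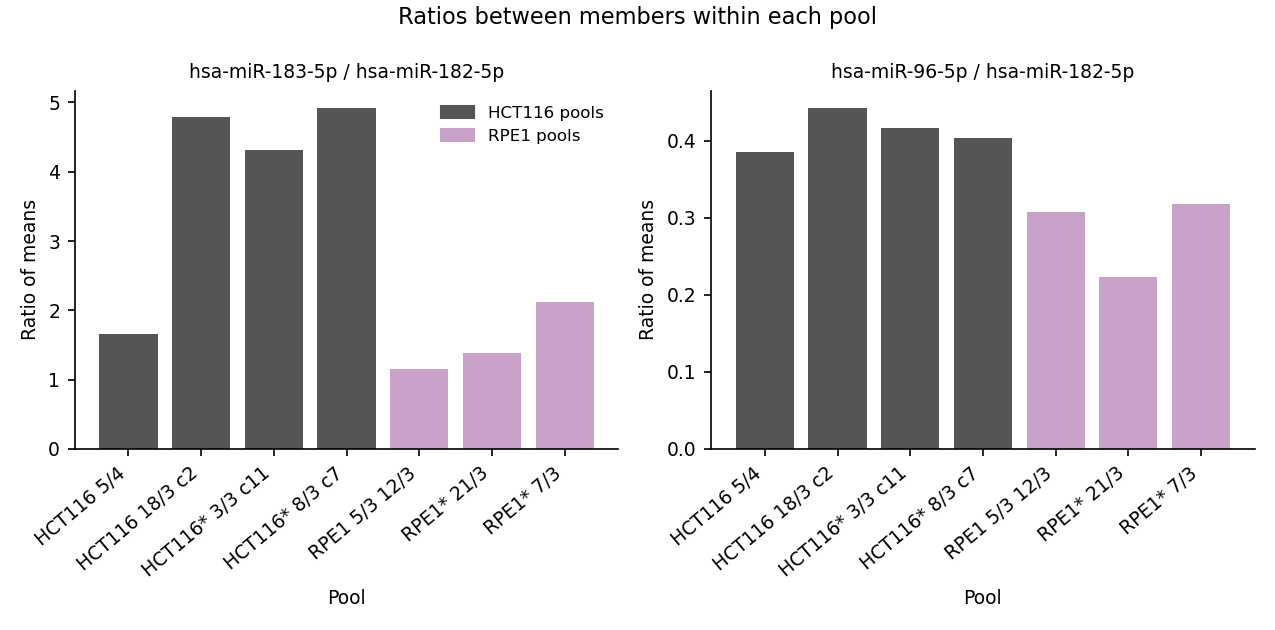
Ratio of the authors' means of 2 members within each pool, hsa-miR-183-5p over hsa-miR-182-5p on the left and hsa-miR-96-5p over hsa-miR-182-5p on the right, with both y axes starting at 0. The left panel shows 3 HCT116 pools above 4 and HCT116 5/4 at 1.66, whereas in the right panel all HCT116 bars (0.385 to 0.443) are above all RPE1 bars (0.223 to 0.317).

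Set beside the other 3 HCT116 pools, HCT116 5/4 had 2.44-fold the median level of hsa-miR-182-5p, 2.26-fold that of hsa-miR-96-5p and 0.876-fold that of hsa-miR-183-5p in ppm. Both of the higher values passed 2-fold, as did 21.4% of the 173 miRNAs, so such a difference was not rare between these pools. Median-of-ratios scaling gave 2.29-, 2.12- and 0.856-fold. The lines and their controls differ here together, because the HCT116 5/4 pool is the one HCT116 pool made with HCT116 and not HCT116* controls. The study added the paired replicate number to the fits of RPE1* 21/3, HCT116 5/4 and RPE1 5/3 12/3 to allow for sequencing batches and states read lengths of either 100 or 75 bases. These 3 pools had the 3 lowest ratios of hsa-miR-183-5p to hsa-miR-182-5p, 1.15 to 1.66, against 2.11 to 4.93 in the other 4. Line, control, source of the cells and sequencing batch cannot be told apart in these pools.

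In the shares within the cluster, hsa-miR-183-5p took 75.3 to 77.8% of the summed level in the 3 HCT116 pools with HCT116* controls and 54.5% in HCT116 5/4. It took 46.8% in RPE1 5/3 12/3, 53.0% in RPE1* 21/3 and 61.6% in RPE1* 7/3. hsa-miR-182-5p took the largest part of the remainder, from 15.8% in HCT116* 8/3 c7 to 40.7% in RPE1 5/3 12/3. hsa-miR-96-5p never passed 12.7%.

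The miRNAs whose pattern was most like each member were named by the SD over the 7 pools of the log2 ratio to it, among the 172 others. For hsa-miR-96-5p the nearest was hsa-miR-182-5p (SD 0.35), followed by hsa-miR-449c-5p (0.38) and hsa-miR-378a-5p (0.45). For hsa-miR-182-5p it was hsa-miR-96-5p, then hsa-miR-378d (0.47) and hsa-miR-10a-5p (0.50). For hsa-miR-183-5p the nearest were hsa-miR-378i (0.55), hsa-miR-378c (0.60) and hsa-miR-378a-5p (0.62), ahead of hsa-miR-96-5p in 7th and hsa-miR-182-5p in 11th place. The median SD over the 172 was 2.23 for hsa-miR-183-5p, 1.86 for hsa-miR-96-5p and 1.58 for hsa-miR-182-5p. The likeness rests on 7 pools that share libraries and includes the step between HCT116 and RPE1, and close members of the miR-378 family may share reads.

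The seed of hsa-miR-96-5p, UUGGCAC, was held by one other listed miRNA, hsa-miR-1271-5p, whose hairpin is on chromosome 5. Its mean was 154 normalised counts in HCT116 5/4 and 80.1 in RPE1 5/3 12/3, the lines that gained chromosome 5. It was 3.28 in HCT116 18/3 c2, 2.88 in HCT116* 8/3 c7 and 6.89 in RPE1* 21/3, and the tables of HCT116* 3/3 c11 and RPE1* 7/3 did not list it. The lowest mean listed was 11.9 for HCT116* 3/3 c11 and 1.10 for RPE1* 7/3, so a mean as low as 3.28 would not appear in the first. The pools with a line that gained chromosome 5 were thus the highest, but they are also among the pools with a replicate term for sequencing batch, and the part of either was not tested. In ppm it was 27.7 in HCT116 5/4 and 8.79 in RPE1 5/3 12/3. It made up 8.07% of the summed level of this seed in RPE1 5/3 12/3 and 0.792% in HCT116 5/4, so hsa-miR-96-5p carried nearly all of it in the HCT116 pools. The summed level of the seed was 3503 ppm in HCT116 5/4 and 1398 to 1937 ppm in the other HCT116 pools, against 109 to 128 ppm in the RPE1 pools, a difference of the medians of 3.79 on the log2 scale. When bases 2 to 7 defined the family, hsa-miR-182-5p joined it, the sums were 4867 to 12531 ppm in HCT116 and 435 to 683 ppm in RPE1, and the difference was 3.44. The seeds of hsa-miR-183-5p and hsa-miR-182-5p, AUGGCAC and UUGGCAA, were held by no other listed miRNA among the 416 names that matched a RefSeq mature sequence.

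RPE1* 7/3 carries an additional copy of the chromosome that holds the cluster, and its pool was set beside that of RPE1* 21/3, the other pool with RPE1* controls. Only the 3 line libraries of each pool differ in these chromosomes. The level of hsa-miR-183-5p was 850 ppm in RPE1* 7/3 and 770 ppm in RPE1* 21/3. The level in RPE1* 7/3 was 1.03-fold that in RPE1* 21/3 for hsa-miR-96-5p and 0.721-fold for hsa-miR-182-5p. Of the 269 miRNAs listed in both pools, 44.2% were higher in RPE1* 7/3, as were 2 of the 3 members. Thus 2 members were nominally higher and hsa-miR-182-5p was lower. Without a spread between libraries, none of these differences can be called a change. The 3 control libraries in each pool do not carry the gain, so a change in the line is diluted in its pool.

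Of 14 miRNAs with a mature sequence on chromosome 7 alone, 9 were higher in RPE1* 7/3, and their median was 0.10 on the log2 scale, with a range from −3.14 (hsa-miR-335-5p) to 1.88 (hsa-miR-550a-5p). Of 214 miRNAs on other chromosomes, 92 were higher (43.0%) and the median was −0.38. Relative to that median hsa-miR-183-5p was 0.52 higher, hsa-miR-96-5p 0.42 higher and hsa-miR-182-5p −0.09. Under median-of-ratios scaling the direct folds were 1.24, 1.15 and 0.810 in the same order. hsa-miR-93-5p, hsa-miR-106b-5p and hsa-miR-25-5p, 5p arms of another chromosome 7 cluster, in an intron of MCM7, had folds of 0.592, 0.502 and 3.64. In RPE1* 7/3 their levels were 243, 72.2 and 17.3 ppm, and in RPE1* 21/3 410, 144 and 4.77 ppm. The fold of hsa-miR-25-5p thus rests on the lowest levels of these miRNAs. The 214 include miRNAs of chromosomes 9, 12 and 21, of which RPE1* 7/3 gained the first 2 and RPE1* 21/3 the last. Without them, in a comparison chosen after seeing the data, 79 of 184 were higher (42.9%) and the median was −0.41. These gains, the 2 sets of control libraries and the sequencing batches differ between the pools together with chromosome 7, and cannot be told apart from its gain. The study compared RPE1* 7/3 with its own controls, a comparison not used here. It reported higher expression for miRNAs of the gained chromosome than for those of disomic chromosomes.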

How the data were processed

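Per the labels and the study's methods, small RNA libraries were trimmed with cutadapt, mapped to hg19 and counted with mirdeep2 by the authors, and each line was compared with its control in DESeq2 (version not given in the sources used here). The deposited tables hold 1 row per miRNA. The mean used here is a signal that the authors averaged over 6 libraries after dividing each count by its library's size factor. The other 5 columns hold the authors' own comparison (log2 fold change, its standard error, test score, p-value and adjusted p-value) and were not used. There were 0 columns of single libraries, so depth and replicate spread are unknown, and 3 against 3 libraries were not tested.

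Levels were means in parts per 1000000 (ppm) of the summed mean of a table. Comparisons across miRNAs used the 173 with a mean of at least 10 in all 7 tables. The chromosome 7 comparison instead used the 269 listed in both of its pools, with no minimum mean. Named miRNAs were the 3 members, listed miRNAs that share their seed, the 3 most alike in pattern for each member, listed tissue markers and the chromosome 7 list; hsa-miR-93-5p, hsa-miR-106b-5p, hsa-miR-25-5p, hsa-miR-335-5p and hsa-miR-550a-5p were named after their values were seen. Names were matched to RefSeq (416 of 509, 81.7%) and positions taken from GENCODE on GRCh37. Median-of-ratios scaling and the likeness measure were run on simulated data as a check of the code. The likeness check used a pair of rows set in a fixed ratio, so it does not show how the measure performs on real pools. Python 3.11.15, pandas 2.3.3 and numpy 2.4.6 were used. The members and lists were chosen with earlier results of these data known.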

Additional observations from a re-analysis of the deposited data

Results flagged for a closer look

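In ppm, the level of hsa-miR-182-5p in the HCT116 5/4 pool, 9028 ppm, lay far from those of the other 3 HCT116 pools: its gap to the nearest was 0.837 of the whole range, above Dixon's critical value for 4 values. The gap was 0.747 of the range for median-of-ratios levels and 0.758 for log2 ppm, 2 scales chosen after seeing the data, and neither passed that value. Of 5 sets of HCT116 values examined in the first way (3 levels and 2 ratios), this was the only one past it. Chance passes it in about 1 of 20 sets of independent values, but the other 3 pools share their control libraries, so that rate does not apply to them as it stands.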

How the results depend on the processing

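No paired analysis was possible because the tables hold no values of single libraries, and for the same reason no library could be left out. Of 29 values recomputed with other settings, 25 moved by less than 1 SD of log2 values and 4 moved by more, and none changed direction. For levels the SD was that between pools within a cell type, and for the chromosome 7 miRNAs that between miRNAs. For the ratios it was that over all 7 pools, which includes the step between HCT116 and RPE1. The 4 are those under median-of-ratios scaling in place of ppm, where the log2 difference between HCT116 and RPE1 pools was 3.39 for hsa-miR-183-5p, 2.83 for hsa-miR-96-5p, 2.19 for hsa-miR-182-5p and 2.82 for the summed seed of hsa-miR-96-5p. That scaling moves the median of all 173 miRNAs by a like amount. The other settings were a shared list of miRNAs as the sum, a sum without the most abundant miRNA, a minimum mean of 10, a mean of log2 levels, pools without repeated control libraries, and a shorter seed. Over them the difference ranged from 4.38 to 4.77 for hsa-miR-183-5p, 3.80 to 4.15 for hsa-miR-96-5p and 3.32 to 3.80 for hsa-miR-182-5p. For the chromosome 7 miRNAs the median ranged from 0.10 to 0.27, median of ratios included. The SD between these miRNAs, 1.34, is wide beside such shifts, so it does not show whether their median was steady. The depth of the libraries is unknown, and hsa-miR-1271-5p had means under 10 in 3 pools.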

Other observations

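The neural and sensory list, of which 2 of 3 names were listed, was also higher in the HCT116 pools. hsa-miR-7-5p, a miRNA known from neuroendocrine cells, was at 32417 to 40109 ppm in HCT116 and 1310 to 6578 ppm in RPE1. hsa-miR-9-5p, known from neural progenitors, was at 1778 to 2663 ppm in HCT116 and 8.96 to 14.2 ppm in RPE1. Neither miRNA's values overlapped between the cell types, an order that 46.8% of the 173 miRNAs had under ppm and 25.4% under median of ratios.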
